A study of Homo sapiens with 6 samples.

Results

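The chromosome 19 zinc finger genes are the 248 genes in the tables whose symbol is ZNF followed by a number, with at most 1 further letter, and whose locus lies on chromosome 19. They were found among 23284 gene symbols, 83 on the short arm (19p) and 165 on the long arm (19q), with the arms divided at 26 Mb of the hg19 build, and each had a single record. The pattern also takes in symbols that end in P, and 9 members had no protein-coding transcript in the gene annotation. No expression value entered the choice.

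Most of these genes encode proteins with arrays of C2H2 zinc fingers, in which pairs of cysteines and histidines hold a zinc ion and each finger touches a few bases of DNA. A large share carries a KRAB domain at the amino terminus, which recruits the corepressor KAP1 (TRIM28), and through it the methyltransferase SETDB1 and heterochromatin proteins. KRAB zinc finger genes lie in tandem clusters on chromosome 19 that grew by duplication, and many silence retrotransposons. They are usually transcribed at low levels.

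RNA was measured in GM12873, an Epstein-Barr virus-transformed B-lymphoblastoid line, by poly(A)-selected RNA-Seq with 75-base single-end reads. The 3 control samples were washed cells lysed in trizol without drying. The 3 lyophilized samples were washed cells freeze-dried in 0.1 M trehalose, kept for 2 weeks at room temperature and then lysed in trizol. Each control is paired with the lyophilized sample of the same replicate number in the labels. Every lyophilized sample was dried, held in trehalose and stored, and no control was, so that drying, trehalose and storage cannot be told apart. All 6 come from 1 line of 1 donor, so that the p-values measure the spread between these samples.

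The values are FPKM, fragments per kilobase of transcript, scaled to the number of mapped reads. The tables hold FPKM without read counts, and the steps between the lowest FPKM values put the depth of controls 1 to 3 at 0.604, 0.832 and 1.0 times that of control 3, and that of lyophilized samples 1 to 3 at 1.145, 1.11 and 0.923 times. The lyophilized sample was thus the deeper one in pairs 1 and 2, and the part of depth in the results was not tested. All 7 B cell markers on a list of defining genes were above 1 FPKM in every sample, and summed to between 2982 and 3963 FPKM in the controls and between 2711 and 3647 FPKM after lyophilization. The 4 T cell markers summed to at most 0.379 FPKM and the 4 monocyte markers to at most 0.909 FPKM, with CD3G at 0 throughout. Of the natural killer cell markers, NKG7 was between 4.35 and 7.74 FPKM, while KLRD1 was at 0 throughout.

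A total of 230 members had a value above 0 in all 6 samples, but their levels were low. The median member had a mean of 1.64 FPKM, 149 members were above 1 FPKM in every sample, 28 had a mean above 5 FPKM and 10 a mean above 10 FPKM. Controls 1 to 3 had 166, 171 and 178 members above 1 FPKM, and their lyophilized partners had 167, 172 and 175. The group means were 172 ± 6.03 and 171 ± 4.04 members (SD, n = 3), so the counts of the groups overlapped. The summed FPKM of the members was 649 ± 13.0 in control and 658 ± 36.5 in lyophilized cells (SD, n = 3), again with overlap.

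**Figure D1:**
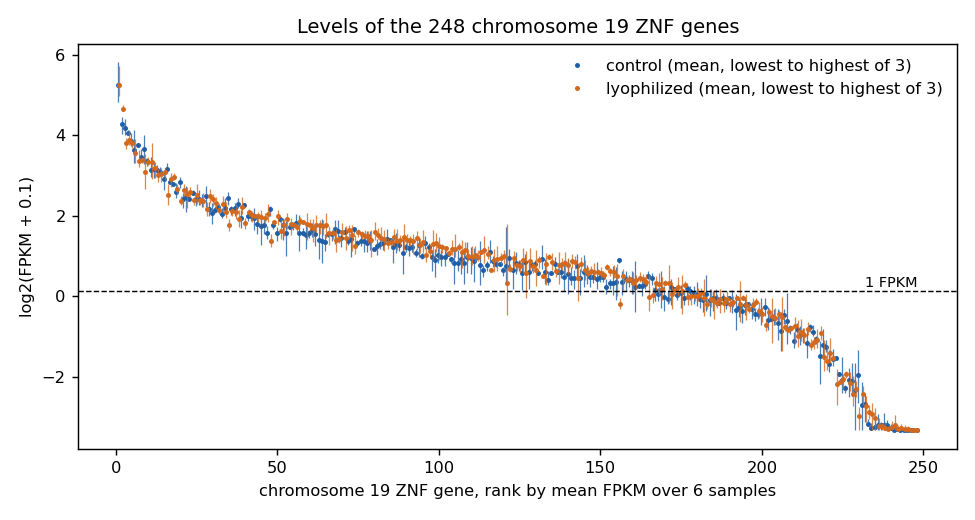
Level of each of the 248 members in rank order, as log2(FPKM + 0.1), with the mean (point) and the lowest to highest of 3 samples (line) in the control and lyophilized groups. The levels of both groups follow the same descent, and 10 members have a mean above 10 FPKM.

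At the low end, ZNF534, ZNF556 and ZNF676 were listed at 0 in all 6 samples. Members of the 19p cluster nearest the centromere were among the lowest, with ZNF208, ZNF729 and ZNF99 at mean values of at most 0.004 FPKM in either group. ZNF536, a regulator of neuronal differentiation, had means of 0 and 0.003 FPKM. At such levels, 0 in a table without counts shows only how the gene was listed.

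The highest member was ZNF581, which encodes a short protein with 4 fingers. It measured 55.8, 28.3 and 35.1 FPKM in controls 1 to 3 and 52.7, 31.2 and 33.1 FPKM in their lyophilized partners. Pair 1 was high in both groups, which overlapped, and the log2 fold change was -0.0085 ± 0.29 (SE, adjusted p = 0.994, limma). In its neighbour ZNF524 pair 1 was likewise high, at 17.4, 9.85 and 10.8 FPKM in the controls and 14.9, 9.88 and 10.8 FPKM after lyophilization.

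ZNF146 ranked 2nd and encodes a protein made almost wholly of zinc fingers. Its values were 16.3, 21.6 and 19.9 FPKM in the controls and 24.04, 24.2 and 27.01 FPKM after lyophilization. Every lyophilized sample was above every control. The log2 fold change was 0.39 ± 0.14 (SE), with an adjusted p of 0.262 from limma, and 0.00897 once the pair entered the fit as a block. The locus of ZNF146 starts at 36705503 and overlaps the record of ZNF565, which ends at 36705986 and had a mean of 0.623 FPKM. Only reads within this short stretch cannot be told apart without strand.

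Among the other high members, ZNF580, next to ZNF581, measured 17.7, 15.9 and 21.1 FPKM in the controls and 14.1, 12.5 and 15.1 FPKM after lyophilization. ZNF444, a SCAN domain protein, gave 13.4, 13.0 and 13.5 FPKM in the controls and 12.2, 9.24 and 9.36 FPKM after lyophilization. In both genes all lyophilized values lay below all control values, with log2 fold changes of -0.38 ± 0.14 and -0.39 ± 0.14 (SE) and limma adjusted p-values of 0.283 and 0.264, or 0.00501 and 0.0142 with the block. ZNF787 (16.5 ± 0.797 against 14.8 ± 2.29 FPKM), ZNF428 (14.5 ± 1.85 against 13.8 ± 0.894 FPKM) and ZNF317 (11.0 ± 1.199 against 10.4 ± 0.516 FPKM, SD, n = 3) had overlapping groups.

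Lyophilized and control samples were compared with limma on log2(FPKM + 0.1), for genes with a mean above 1 FPKM in at least 1 group. This filter kept 178 of the 248 members, and the other 70 had means of at most 0.941 FPKM. Close to the filter, ZNF805, ZNF682 and ZNF837 stayed out with higher group means of 0.959, 0.976 and 0.977 FPKM, while ZNF284, ZNF792 and ZNF347 came in with 1.01, 1.04 and 1.05 FPKM. Fold changes on this scale understate the change of low genes, and members that pass through 1 group only favour the higher group.

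No member was called at an adjusted p of 0.05, against 64 of 11134 genes tested (0.575%), 2 of them higher and 62 lower. At an unadjusted p of 0.05, 16 members passed, 7 higher and 9 lower, where 14.1% of all genes did, 4.96% higher and 9.16% lower. The smallest adjusted p of a member was 0.0551 (limma), for ZNF628. Fitted without the mean-variance trend, limma called ZNF628 and no other member.

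With the pair as a block, 19 of the 178 members (10.7%) passed, against 30.7% of all genes. Of these, 8 rose and 11 fell, where 15.9% of all genes rose and 14.9% fell. The tested members were expressed at a median of 2.39 FPKM and all tested genes at 10.3 FPKM, and the part of the level in these shares was not tested. The count of members called moved with the pairs, at 18 without pair 1, 57 without pair 2 and 6 without pair 3. The share over all genes moved likewise, at 19.8%, 47.9% and 11.3%.

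The 8 members that rose in the blocked fit were ZNF121, ZNF146, ZNF254, ZNF43, ZNF567, ZNF675, ZNF816 and ZNF85. The 11 that fell were ZNF296, ZNF414, ZNF444, ZNF446, ZNF526, ZNF574, ZNF579, ZNF580, ZNF587, ZNF628 and ZNF865. ZNF146 and ZNF121 were the risers without a match to a KRAB pattern, and ZNF587 the only one of the 11 with a match. The pattern was a short run of residues of the KRAB A box, searched in the first 300 residues of the longest coding sequence. It was not checked against known domains, so a member without a match may still encode a KRAB domain.

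ZNF628 had the largest fall. It measured 1.83, 1.69 and 1.83 FPKM in controls 1 to 3 and 0.879, 0.710 and 0.762 FPKM in their lyophilized partners. With means of 1.78 and 0.784 FPKM it passed the filter only through the control group, where it is high. The groups lay far apart relative to their SDs of 0.080 and 0.087 FPKM, and the log2 fold change was -1.10 ± 0.19 (SE, limma adjusted p = 0.0551, or 0.00201 with the block). It was the only tested member whose log2 fold change passed 1 in size, and 8 members passed 0.5.

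ZNF865, with 21 fingers, gave 4.64, 3.88 and 4.62 FPKM in the controls and 2.81, 2.26 and 2.46 FPKM after lyophilization. ZNF579 stood at 5.88, 4.68 and 5.51 FPKM in the controls and 3.67, 2.96 and 3.29 FPKM after lyophilization. Neither gene had overlapping groups, and the log2 fold changes were -0.78 ± 0.15 and -0.68 ± 0.15 (SE) with limma adjusted p-values of 0.0812 and 0.109, or 0.00178 and 0.00215 with the block. ZNF628, ZNF865 and ZNF579 lie in the same cluster of 19q, with ZNF580, ZNF581, ZNF524 and ZNF444.

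ZNF414, on 19p, measured 9.77, 8.31 and 8.63 FPKM in the controls and 6.78, 5.56 and 4.71 FPKM after lyophilization, with no overlap. Its log2 fold change was -0.65 ± 0.16 (SE, limma adjusted p = 0.134, or 0.00220 with the block). ZNF574 fell from 7.72, 6.33 and 7.03 FPKM to 5.54, 4.89 and 4.71 FPKM in the blocked fit, at a log2 fold change of -0.47 ± 0.13 (SE, limma adjusted p = 0.178, or 0.00677 with the block). Its groups did not overlap either.

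ZNF296 is known from work on pluripotent cells. Its controls measured 16.1, 9.68 and 12.5 FPKM and their partners 11.5, 6.24 and 8.17 FPKM, so that the groups overlapped while the differences within the pairs ran from -0.484 to -0.624 on the log2 scale. The log2 fold change was -0.57 ± 0.26 (SE), with a limma adjusted p of 0.365 without the block and 0.00151 with it.

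The largest rise was that of ZNF254, on 19p near the centromere. It measured 1.12, 1.17 and 1.45 FPKM in the controls and 1.83, 1.83 and 1.97 FPKM after lyophilization, without overlap. The log2 fold change was 0.56 ± 0.18 (SE, limma adjusted p = 0.224, or 0.0204 with the block).

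ZNF43, in the same cluster, measured 1.29, 1.52 and 1.61 FPKM in the controls and 1.67, 2.16 and 2.72 FPKM after lyophilization, just without overlap. ZNF85, also there, gave 2.07, 2.45 and 2.82 FPKM in the controls and 2.64, 3.32 and 4.12 FPKM after lyophilization, with overlap but a higher value in each pair. Their log2 fold changes were 0.51 ± 0.22 and 0.43 ± 0.20 (SE), with limma adjusted p-values of 0.340 and 0.389, or 0.0269 and 0.0242 with the block. ZNF675, an inhibitor of TRAF6 signalling in this cluster, went from 2.88 ± 0.368 to 3.90 ± 0.519 FPKM (SD, n = 3, limma adjusted p with the block 0.0212).

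On 19q, ZNF816 measured 2.60, 2.88 and 3.24 FPKM in the controls and 3.82, 3.48 and 4.80 FPKM after lyophilization. ZNF567 gave 2.18, 2.20 and 2.08 FPKM in the controls and 2.87, 2.55 and 3.47 FPKM after lyophilization. Neither gene had overlapping groups, and the blocked limma adjusted p-values were 0.0188 and 0.0410. ZNF569 stood at 1.09 ± 0.160 against 1.56 ± 0.099 FPKM (SD, n = 3), also without overlap, but did not pass with the block (limma adjusted p = 0.0529). The locus of ZNF816 overlaps the read-through record ZNF816-ZNF321P, between which reads can be shared.

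**Figure D2:**
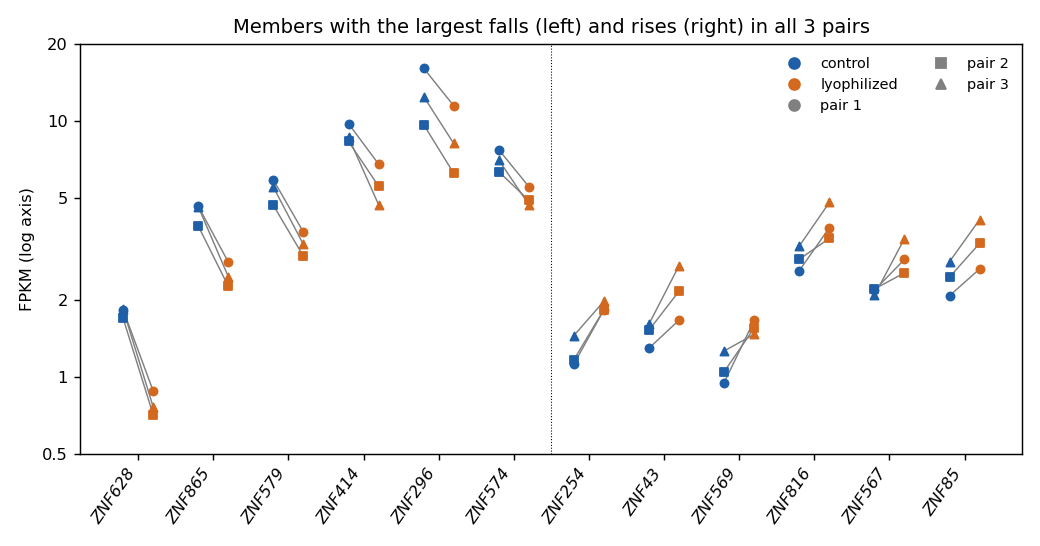
FPKM on a log axis of the 6 members with the largest falls and the 6 with the largest rises among those that moved the same way in all 3 pairs, with 1 point per sample and a line joining each pair (marker shapes give the pair). ZNF628 drops from between 1.69 and 1.83 FPKM to between 0.710 and 0.879 FPKM, and ZNF254 climbs from between 1.12 and 1.45 FPKM to between 1.83 and 1.97 FPKM.

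Over the tested members, 50 (28.1%) were higher in all 3 pairs and 27 (15.2%) lower in all 3, where 33.4% and 28.8% of all genes were. Groups did not overlap in 21 members that were higher and 14 that were lower (19.7% in all), against 22.2% of all genes, 9.66% higher and 12.6% lower. These shares are near the background for rises and under it for falls.

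The median log2 fold change was 0.12 over the tested members, with 121 of 178 (68%) above 0, and 0.039 over all genes tested, with 56.3% above 0. After a correction for transcript GC content the median of the members was -0.021, the opposite sign, with 46.3% above 0. Within pairs 1 to 3 the medians of the members were 0.16, -0.029 and 0.15, so pair 2 did not share the shift. Without control 1 the median was 0.052, and without lyophilized sample 3 it was 0.061.

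The arms differed in their counts. On 19p, 47 of 58 tested members (81.0%) had a log2 fold change above 0, with a median of 0.17. In all 3 pairs, 22 of the 58 (37.9%) were higher and 4 (6.9%) lower. On 19q, 74 of 120 (61.7%) were above 0, with a median of 0.080, and 28 (23.3%) were higher and 23 (19.2%) lower in all 3 pairs. Among all genes tested, 56.3% were above 0, and 33.4% were higher and 28.8% lower in all 3 pairs. With the GC correction the medians were -0.035 and -0.020, so the order of the arms was not kept. The difference between the arms was not tested, since the genes share the same 6 libraries.

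**Figure D3:**
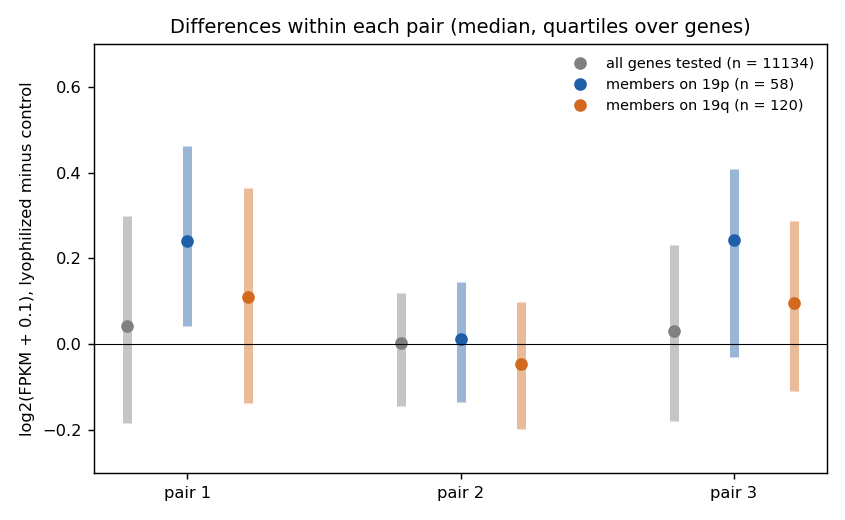
Difference in log2(FPKM + 0.1) between the lyophilized and the control sample of each pair, as the median (point) and quartiles (bar) over all 11134 genes tested, the 58 tested members on 19p and the 120 on 19q. The median of the 19p members is 0.24 in pair 1, 0.012 in pair 2 and 0.24 in pair 3, and that of all genes is at most 0.044.

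Divided wherever the next member lay over 500 kb away, the members form 20 groups along the chromosome, some of them of a single member. The 19p cluster at 19.78 to 24.31 Mb, from ZNF101 to ZNF254, holds 34 members, and 22 of its 24 tested members had a log2 fold change above 0 (median 0.22). In the 19q cluster at 36.67 to 38.27 Mb, from ZNF565 to ZNF573, 11 of 12 tested members were above 0 (median 0.30). The largest 19q clusters were at 52.07 to 54.08 Mb, with 29 of 33 above 0 (median 0.20), and at 57.70 to 58.99 Mb, with 16 of 37 above 0 (median -0.057). The share above 0 over all genes tested was 56.3%.

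In a cluster at 55.99 to 57.18 Mb of 19q, from ZNF628 to ZNF835, 1 of 11 tested members was above 0 and the median was -0.38. It holds the highly expressed members ZNF581, ZNF580, ZNF787, ZNF524 and ZNF444, and the median transcript GC content was 64.9% over its 11 tested members and 59.6% over all 17. Over the 24 tested members of the 19p cluster from ZNF101 to ZNF254 it was 37.2%.

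**Figure D4:**
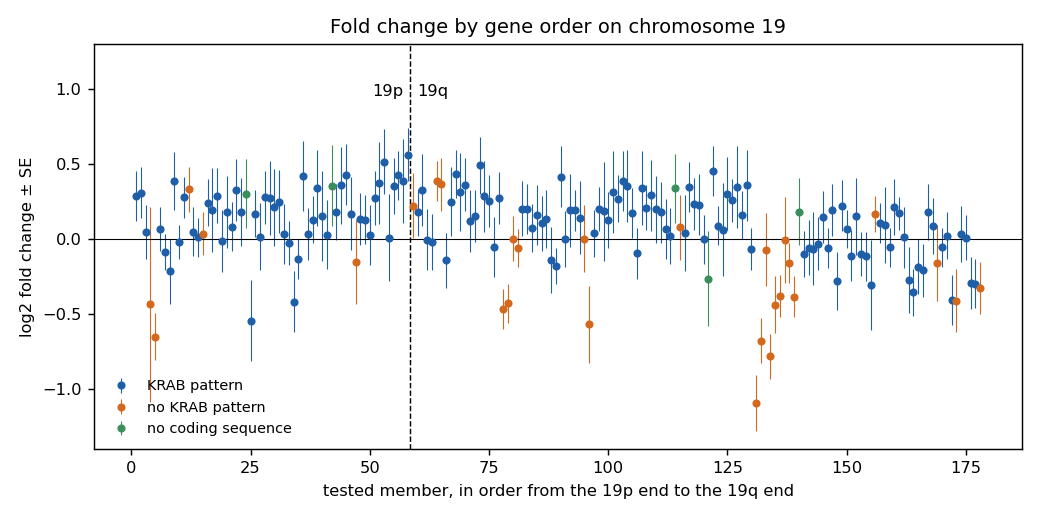
Log2 fold change with its SE from limma for the 178 tested members in their order along chromosome 19, coloured by whether the longest coding sequence matches the KRAB pattern. The 5 lowest values, down to -1.10 for ZNF628, are of members without the pattern, and members on 19p lie mostly above 0.

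The falling and the rising members differed in the base composition of their transcripts. For the most part they also differed in KRAB pattern, chromosome arm and level, and the part of each was not tested. The 11 that fell in the blocked fit had a GC content of 57.8% or more in the longest coding transcript, apart from ZNF587 at 44.9%, and the 8 that rose had at most 41.4%. The finger sequences of some of them show it within the same protein fold. Each sequence is a finger with its linker, the first in its protein that runs straight into another finger. The codons of the 2 zinc-binding cysteines and 2 histidines are in capitals, and the strand is that of the gene in the GRCh37 (hg19) genome. The first 4 are from genes that fell, at chr19:55992666-55992749 (plus strand), chr19:56125654-56125737 (plus), chr19:56090115-56090198 (minus) and chr19:42583764-42583847 (plus).
ZNF628: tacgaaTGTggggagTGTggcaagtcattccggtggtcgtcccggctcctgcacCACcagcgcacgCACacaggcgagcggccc
ZNF865: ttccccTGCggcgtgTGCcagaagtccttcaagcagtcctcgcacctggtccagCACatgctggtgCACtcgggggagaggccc
ZNF579: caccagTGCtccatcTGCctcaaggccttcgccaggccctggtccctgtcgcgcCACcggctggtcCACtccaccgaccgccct
ZNF574: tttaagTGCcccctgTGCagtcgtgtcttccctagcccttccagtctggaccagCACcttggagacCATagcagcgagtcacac

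The next 4 are from genes that rose, at chr19:24309598-24309681 (plus), chr19:21991900-21991983 (minus), chr19:53454176-53454259 (minus) and chr19:21131840-21131923 (plus), and the last is from ZNF146 at chr19:36727388-36727471 (plus).
ZNF254: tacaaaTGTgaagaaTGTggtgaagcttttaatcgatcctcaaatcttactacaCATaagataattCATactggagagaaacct
ZNF43: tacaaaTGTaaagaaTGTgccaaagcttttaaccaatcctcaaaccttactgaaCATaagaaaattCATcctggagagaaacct
ZNF816: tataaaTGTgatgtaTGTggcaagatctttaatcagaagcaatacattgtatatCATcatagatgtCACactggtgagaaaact
ZNF85: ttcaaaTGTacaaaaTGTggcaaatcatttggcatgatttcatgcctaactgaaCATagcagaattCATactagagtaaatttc
ZNF146: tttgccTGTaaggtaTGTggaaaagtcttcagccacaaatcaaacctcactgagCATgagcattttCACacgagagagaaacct

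All 9 units lie in coding exons, and each spans 84 bases. In the genes that fell, G or C made up 66.7%, 65.5%, 70.2% and 57.1% of the unit, and in ZNF628, ZNF579 and ZNF574 82.1%, 96.4% and 64.3% at the third base of the codons, while in ZNF865 each of these bases was G or C. In ZNF254, ZNF43, ZNF816 and ZNF85 the unit held 33.3%, 34.5%, 32.1% and 32.1%, with 14.3%, 25%, 28.6% and 25% at the third base. In ZNF146 the values were higher, at 42.9% and 46.4%, and in ZNF567, whose unit is not printed, 39.3% and 35.7%. GC-rich units were also found in members with small log2 fold changes, at 66.7% in ZNF524 (-0.071), 64.3% in ZNF787 (-0.16) and 57.1% in ZNF581 (-0.0085), with 96.4%, 100% and 85.7% at the third base. The zinc-binding residues are the same in both printed sets, mostly written TGC and CAC in the first and TGT and CAT in the second.

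Across the 177 tested members with a matched transcript, log2 fold change and transcript GC content had a Spearman correlation of -0.63 (Pearson -0.72), a description over genes that share the same 6 libraries. Within pairs 1, 2 and 3 it was -0.49, -0.40 and -0.59. A like relation held outside the members, at -0.75 over 10993 genes and -0.79 over 197 ZNF genes on other chromosomes. Against the GC content of the single finger units it was -0.38 over 167 members.

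**Figure D5:**
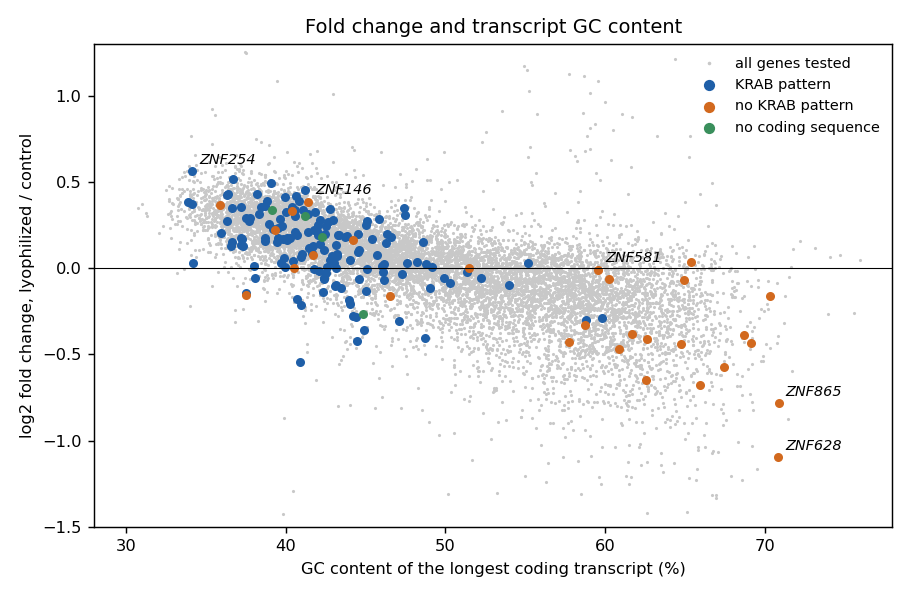
Log2 fold change of lyophilized against control samples on the GC content of the longest coding transcript, for all genes tested (grey, 10976 shown and 17 outside the axes) and the tested members, coloured by KRAB pattern. The members slope the same way as the grey cloud, but over 55% GC their median was -0.39 against -0.19 over all genes. The largest rise was ZNF254 at 34.1% GC and 0.56, and the largest fall ZNF628 at 70.8% GC and -1.10.

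Grouped by this measure, 44 of the 47 tested members under 40% GC had a log2 fold change above 0 (median 0.25), as did 56 of 77 between 40% and 45% (median 0.13). In the range from 45% to 55% it was 18 of 32 (median 0.009), and over 55% it was 2 of 21 (median -0.39). All genes tested had medians of 0.29, 0.18, -0.002 and -0.19 in the same ranges, with 97.3%, 87.7%, 49.6% and 17.5% of them above 0. Over 55% the members also had a higher median GC content than all genes, 62.6% against 59.7%. The 45 tested ZNF genes of other chromosomes over 55% had a median log2 fold change of -0.32 at a median GC content of 59.8%, and 19 of them fell in the blocked fit. Over 55%, 10 of the 21 members fell in the blocked fit and none rose, where 1261 of 3238 genes fell.

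The KRAB pattern was found in 203 of the 239 protein-coding members, among them ZNF274, where it lies ahead of a break in the reading frame, and 145 of the 203 were tested. Their median log2 fold change was 0.15, with 108 (74.5%) above 0, and 45 (31.0%) were higher and 14 (9.66%) lower in all 3 pairs. The 28 tested members without the pattern had a median of -0.16, with 9 (32.1%) above 0, and 4 (14.3%) were higher and 13 (46.4%) lower in all 3 pairs. Among all genes tested, 56.3% were above 0, 33.4% higher and 28.8% lower in all 3 pairs, so the share of rises with the pattern is near the background. Members without the pattern also had GC-rich transcripts, with a median of 60.6% against 42.0%.

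Few members combined the pattern with a high GC content, or its absence with a lower one. Among those without the pattern, 18 over 55% GC had a median log2 fold change of -0.42 and 10 at or below 55% GC one of 0.12, with 8 of the 10 above 0. The 3 tested members with the pattern over 55% GC were ZNF324, ZNF324B and ZNF584, with log2 fold changes of -0.30, -0.29 and 0.032. None of these was lower in all 3 pairs. Per protein, the members had between 1 and 39 fingers with a median of 12.5 (ZNF729 having the most), and log2 fold change had a Spearman correlation of 0.22 with the number of fingers over 172 members, or 0.12 among those at or below 55% GC.

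In the blocked fit with a loess correction for GC content, 11 of 177 members (4 higher, 7 lower) were called, against 15.8% of 10993 genes. ZNF628 (-0.77), ZNF865 (-0.46), ZNF414 (-0.37), ZNF579 (-0.35) and ZNF587 (-0.44) were still called lower on the log2 scale, and ZNF146 (0.20) higher, with limma adjusted p-values of 0.00508, 0.00616, 0.01995, 0.0226, 0.0132 and 0.0460. None of the members with the KRAB pattern that rose without the correction was called with it. ZNF224 (-0.39) and ZNF587B (-0.37) were called lower and ZNF581 (0.21), ZNF524 (0.25) and ZNF653 (0.36) higher with the correction only.

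Several members are known by function. ZNF91 and ZNF93 silence SVA and LINE-1 retrotransposons. ZNF91 measured 2.00, 1.80 and 1.94 FPKM in the controls and 2.49, 1.99 and 3.01 FPKM after lyophilization, and ZNF93 gave 1.89, 3.57 and 3.48 FPKM in the controls and 3.11, 3.84 and 4.08 FPKM after lyophilization. Both were higher in each pair with overlapping groups, and neither passed, at limma adjusted p-values of 0.425 and 0.556, or 0.0855 and 0.0851 with the block. Of the 75-base stretches of the ZNF91 transcript, 10.9% recur in the genome, and uniquely mapped reads miss these.

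ZNF274, which brings SETDB1 to the 3′ ends of zinc finger genes, was the highest of this set after ZNF146. It measured 9.19, 8.12 and 8.10 FPKM in the controls and 8.96, 7.11 and 8.43 FPKM after lyophilization, which overlapped (log2 fold change -0.057 ± 0.13, SE, limma adjusted p = 0.866). ZNF473, which takes part in the 3′ end processing of histone mRNA, stood at 2.82 ± 0.294 against 2.90 ± 0.306 FPKM (SD, n = 3). ZNF350, a partner of BRCA1, was at 2.49 ± 0.172 against 3.03 ± 0.389 FPKM, with limma adjusted p-values of 0.464 and 0.157 without and with the block.

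ZNF224, a repressor of aldolase A, measured 5.75, 5.65 and 6.15 FPKM in the controls and 5.44, 4.71 and 5.33 FPKM after lyophilization. All lyophilized values lay below the controls, at a log2 fold change of -0.18 ± 0.12 (SE, limma adjusted p = 0.512, or 0.169 with the block). The imprinted gene ZNF331 (2.56 ± 0.038 against 2.44 ± 0.179 FPKM) and ZNF304 (2.66 ± 0.364 against 2.95 ± 0.418 FPKM, SD, n = 3) overlapped between the groups. ZNF382, at 0.872 ± 0.100 and 0.804 ± 0.124 FPKM, was not tested.

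Levels of the members also differed between the pairs. The range of the 3 pair means exceeded the size of the log2 fold change in 123 of the 178 tested members, with medians of 0.30 and 0.19 on the log2 scale. ZNF358 had the widest range, at 3.22, 1.12 and 1.11 FPKM in the controls and 3.37, 0.682 and 0.629 FPKM after lyophilization. Pair 1 was high in both groups of this gene. In ZNF100, at 1.37, 2.28 and 2.65 FPKM in the controls and 2.14, 2.58 and 3.39 FPKM after lyophilization, pair 1 was low in both. Pair 1 was the highest of the 3 in both groups for 24 tested members and the lowest in both for 63. A range over 3 values also holds noise, and the shares over all genes are not given for these counts. They are therefore not read as a trait of the members.

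The genes through which KRAB proteins act were taken from a list of 28, of which 27 were tested and DNMT3B, at 0.176 ± 0.006 and 0.128 ± 0.023 FPKM, was not. None was called without the block, with 2 higher and 2 lower at an unadjusted p of 0.05. With the block 13 of 27 (48.1%) passed, 7 higher and 6 lower, against 30.7% of all genes. After the GC correction 1 passed, against 15.8% of all genes. The median log2 fold change of the 27 was 0.057. They were expressed at a median of 20.4 FPKM and all tested genes at 10.3 FPKM, and the part of the level in these shares was not tested.

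The scaffold TRIM28 (KAP1) measured 110, 130 and 126 FPKM in the controls and 88.6, 111 and 100 FPKM after lyophilization. Each pair was lower, the groups just overlapped, and the log2 fold change was -0.29 ± 0.13 (SE, limma adjusted p = 0.359, or 0.00282 with the block). With the GC correction it was 0.015, on the other side of 0. SETDB1, which methylates histone H3, stood at 10.8 ± 0.336 against 9.63 ± 1.35 FPKM (SD, n = 3), and its cofactor ATF7IP at 9.40 ± 1.10 against 11.3 ± 0.572 FPKM, and neither passed in either fit.

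Of the heterochromatin proteins, CBX3 rose in the blocked fit (72.0 ± 20.9 against 91.3 ± 16.3 FPKM, SD, n = 3, limma adjusted p = 0.00556), while CBX1 and CBX5 did not pass. Among the subunits of the NuRD deacetylase complex, CHD3 (18.4 ± 1.51 against 14.6 ± 1.09 FPKM) and MTA1 (33.5 ± 2.74 against 25.8 ± 1.08 FPKM) fell and HDAC2 (12.4 ± 3.55 against 15.3 ± 2.30 FPKM) rose with the block, and CHD4, HDAC1, RBBP4, RBBP7 and MTA2 did not pass. DNMT1, the maintenance methyltransferase, fell from 35.6 ± 7.64 to 28.3 ± 6.05 FPKM, with UHRF1 and DNMT3A.

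ATRX, a chromatin remodeller that works with DAXX, had the largest change of the list. It measured 4.35, 4.76 and 4.67 FPKM in the controls and 6.94, 5.90 and 8.31 FPKM after lyophilization, without overlap, at a log2 fold change of 0.59 ± 0.15 (SE, limma adjusted p = 0.145, or 0.00590 with the block). FAM208A of the HUSH complex, SMARCAD1, SUMO2 and MORC3 also rose with the block, and MPHOSPH8, PPHLN1, MORC2 and DAXX did not pass.

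Beside the members, the 648 other tested genes of chromosome 19 had a median log2 fold change of -0.17, with 148 above 0, and a median transcript GC content of 59.95%. The 197 tested ZNF genes of other chromosomes had a median of 0.045 and a GC content of 45.4%, and 45 of them (22.8%) passed with the block. The difference between these sets and the members was not tested.

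Near-identical copies limit the values of 13 members, in which over 10% of the 75-base stretches of the transcript recur elsewhere in the genome. ZNF98 and ZNF492 had the most, at 44.9% and 30.4%, and were at 0.077 and 0.136 FPKM. ZNF587, one of the members that fell, had 17.6%. The loci of 21 members, 13 of them tested, overlap another record.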

How the data were processed

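Poly(A)-selected RNA of the 3 control and 3 lyophilized samples was sequenced with 75-base single-end reads, pooled on the NextSeq 500 after unstranded TruSeq v2 preparation. The authors called bases with CASAVA 1.4, as the submitters' processing notes name it, mapped reads to hg19 (GRCh37) with TopHat 2.0.7, keeping reads with 1 position, and deposited FPKM values per record from Cufflinks. The Cufflinks version and the gene annotation are not given in the sources used here. FPKM normalizes to length and depth but leaves no counts, so that no counting interval was computed.

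From the 24934 records, 1 per symbol was kept, with the highest mean FPKM, and 1622 symbols of small RNAs were removed. Log2(FPKM + 0.1) of genes with a mean above 1 FPKM in at least 1 group was compared with limma 3.58.1 in R 4.3.3 (mean-variance trend, Benjamini-Hochberg adjustment over 11134 genes, adjusted p of 0.05), without the pairing, as in the authors' own design. The pair as a block was the alternative. The pairing follows the replicate numbers in the labels, and the authors describe their samples as pairs. The deviations of paired samples from their group means correlated at 0.716, 0.603 and 0.476 over all genes, and at 0.635, 0.373 and 0.379 over the members. In the GC correction, a loess curve (span 0.3, degree 2) over transcript GC content was subtracted in each sample. Of the members, 247 were matched to GENCODE 44 on GRCh37, 4 of them by an older symbol. Length and GC content are of the longest coding transcript. Fingers were counted in the longest coding sequence, except in ZNF274, whose reading frame is broken in this build. On simulated data for this comparison over 11134 genes, the fit without the block recovered 35% of changes of 1 on the log2 scale and 1% of changes of 0.5. The fit with the block recovered 76% and 38%, with 0% of calls false in either. In that simulation 100 genes were changed at each size, up and down alike, with independent noise and no shift linked to GC content. The 0% therefore does not cover the 3423 calls of the blocked fit. The simulated pair spread also held residual noise, which can lower recovery without the block.

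The members and all lists were chosen with earlier results of these data known. Named members are the 8 highest, those called, the 6 largest falls and 6 largest rises in all 3 pairs, and a list of 10 with known roles, besides the 28 KAP1 genes, of which 1 is in the counts but is not reported here by itself. Members called in alternative fits are named beside their counts, after their values were seen. Alternatives covered the pseudocount, the filter, scaling, the trend, the block, the GC correction, the record per symbol, the FPKM threshold, and each sample or pair left out. Python 3.11.15, numpy 2.4.6, pandas 2.3.3 and matplotlib 3.10.9 were used.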

Additional observations from a re-analysis of the deposited data

How the results depend on the processing

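The replicate numbers in the labels pair the samples, and the replicate block moved the calls most, from 64 to 3423 over all genes, from 0 to 19 over the chromosome 19 ZNF genes and from 0 to 13 over the KAP1 genes. Alternatives with the block, chosen after seeing the data, gave 3674 genes and 24 members with median scaling, 3510 and 22 with quantile normalization, and 3436 and 20 with a pseudocount of 1. With the block and the GC correction the counts were 1741, 11 and 1, and the median log2 fold changes were -0.021 over the members, -0.035 on 19p and -0.020 on 19q. Without the block, the filter's removal left 0 genes called, and limma without the trend called 1 member. The mean number of members above 2 FPKM was 102 in control and 110 in lyophilized cells.

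With the block, leaving out pair 1, 2 or 3 gave 2205, 5355 and 1257 genes, 18, 57 and 6 members and 8, 20 and 4 KAP1 genes. Leaving out 1 sample without the block gave 0 calls over all genes in each case. Of 972 values of 54 named genes under the alternatives, 827 kept their direction and their side of the threshold, 104 passed it only in the alternative and 41 changed direction. Of these 41, ZNF581 and ZNF524 passed the threshold in the new direction with the block and the GC correction (limma adjusted p = 0.0171 and 0.0394). The cause was not tested.

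With the GC correction the log2 fold changes that changed direction were 0.057 for ZNF274, 0.17 for ZNF428, 0.25 for ZNF524, 0.21 for ZNF581, 0.17 for ZNF787, 0.015 for TRIM28, -0.018 for CBX5, 0.0063 for CHD4, 0.0048 for HDAC1, -0.088 for RBBP4, 0.017 for MTA2, -0.039 for MPHOSPH8, -0.030 for PPHLN1, 0.022 for MORC2 and 0.060 for DAXX. With the block and pair 1 left out, 0.0022 was found for ZNF524, 0.029 for ZNF581 and -0.0013 for MPHOSPH8, with pair 2 left out 0.010 for ZNF274 and 0.0004 for ZNF428, and with pair 3 left out 0.0285 for ZNF581. With 1 sample left out and no block, the log2 fold change ranged from -0.13 to 0.039 for ZNF274, from -0.13 to 0.0019 for ZNF317, from -0.13 to 0.040 for ZNF428, from -0.049 to 0.11 for ZNF473, from -0.25 to 0.18 for ZNF524 and from -0.25 to 0.27 for ZNF581. Among the KAP1 genes it ranged from -0.051 to 0.26 for CBX1, from -0.035 to 0.29 for CBX5, from -0.21 to 0.020 for CHD4, from -0.15 to 0.025 for DAXX, from -0.093 to 0.062 for HDAC1, from -0.079 to 0.17 for MPHOSPH8, from -0.019 to 0.19 for RBBP4 and from -0.035 to 0.26 for RBBP7.

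The median member was at 1.64 FPKM, and the number of reads behind each value is not in the tables. On simulated data over all genes tested, the fit without the block recovered 1% of changes of 0.5 on the log2 scale. That low recovery limits what 3 samples against 3 can show, and it was not measured for the members alone.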
